A study of Mus musculus with 82 samples.

Results

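The genes described here encode 10 subunits of the nucleosome remodelling and deacetylase complex, NuRD, other than its remodelling enzyme Chd4. They are Hdac1, Hdac2, Rbbp4, Mta1, Mta2, Mta3, Mbd2, Mbd3, Gatad2a and Gatad2b. They were chosen by name, as the genes of the other complex that Chd4 forms beside ChAHP, the complex of Chd4 with Adnp and HP1. All 10 were found once each among 21523 protein-coding genes of the GRCm38.p6 annotation on chromosomes 1 to 19 and X.

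NuRD joins nucleosome remodelling by a Chd ATPase to removal of acetyl groups from histones. In embryonic stem cells it is known for restraining genes so that cells can leave the pluripotent state. Adnp is a zinc finger and homeodomain protein that brings Chd4 and HP1 proteins to particular DNA sequences. HP1γ, encoded by Cbx3, is an HP1 protein best known from heterochromatin.

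The series holds 82 samples of mouse embryonic stem cells of a hybrid 129-C57BL/6 background, grown in 2i medium with LIF. What was analysed here is a pair of peak lists, each merged over ChIP-seq replicates by the authors. The HP1γ list holds 2047 peaks that, per its name, lack the Adnp sequence motif, so HP1γ peaks with the motif are not in view here. It is tied to 3 replicates of untreated Adnp knockout cells with a FlagAvi tag on Cbx3 and to 3 of untreated wild-type cells with the same tag. Its peak names carry the words for Cbx3 and Adnp knockout, so no peak of it is assigned to a genotype here. The Adnp list holds 15026 peaks and is tied to 3 replicates of untreated cells called wild type that carry a FlagAvi tag on Adnp. In all of these cells the tagged protein was captured on streptavidin beads. The number of clones behind them is not given in the sources used here, and peak positions alone cannot check the identity of the cells. Merged lists give no value per replicate and no read depth, so the statements below have no replicate error and no test, and intervals cover counting error only.

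Adnp peaks were found at more of the NuRD genes than of protein-coding genes in general. An Adnp peak lay inside 5 of the 10 NuRD genes, against 20.7% of all protein-coding genes. The same 5 had a peak inside or within 1 kb, against 22.8% of all genes. Inside or within 5 kb it was 6 of 10, against 29.2%, and inside or within 20 kb it was 7 of 10, against 43.8%. The NuRD genes were longer than most, with 8 of 10 above the median gene length of 17.4 kb. Among the 13474 protein-coding genes as long as the shortest to the longest NuRD gene, 25.2% held an Adnp peak inside and 34.4% had one inside or within 5 kb. The 5 NuRD genes with an Adnp peak inside were also the 5 longest. Among genes of similar length to each of these, the share with an Adnp peak inside ran from 30.5% (Mta1) to 48.3% (Mta3). For the 5 NuRD genes without one inside, it ran from 7.88% (Mbd3) to 26.4% (Rbbp4). Inside or within 5 kb, the shares over all 10 ran from 19.8% (Mbd3) to 52.0% (Mta3). With only 10 genes the counts are small, and whether they exceed those of genes matched in length was not tested.

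HP1γ peaks were found at a pair of NuRD genes, Hdac2 and Mbd3. This made 2 of 10 in each window. The shares of all protein-coding genes were 2.86% for peaks inside, 3.15% inside or within 1 kb, 3.88% inside or within 5 kb and 6.83% inside or within 20 kb. With only 2 genes, the count says little beyond those genes themselves.

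**Figure D1:**
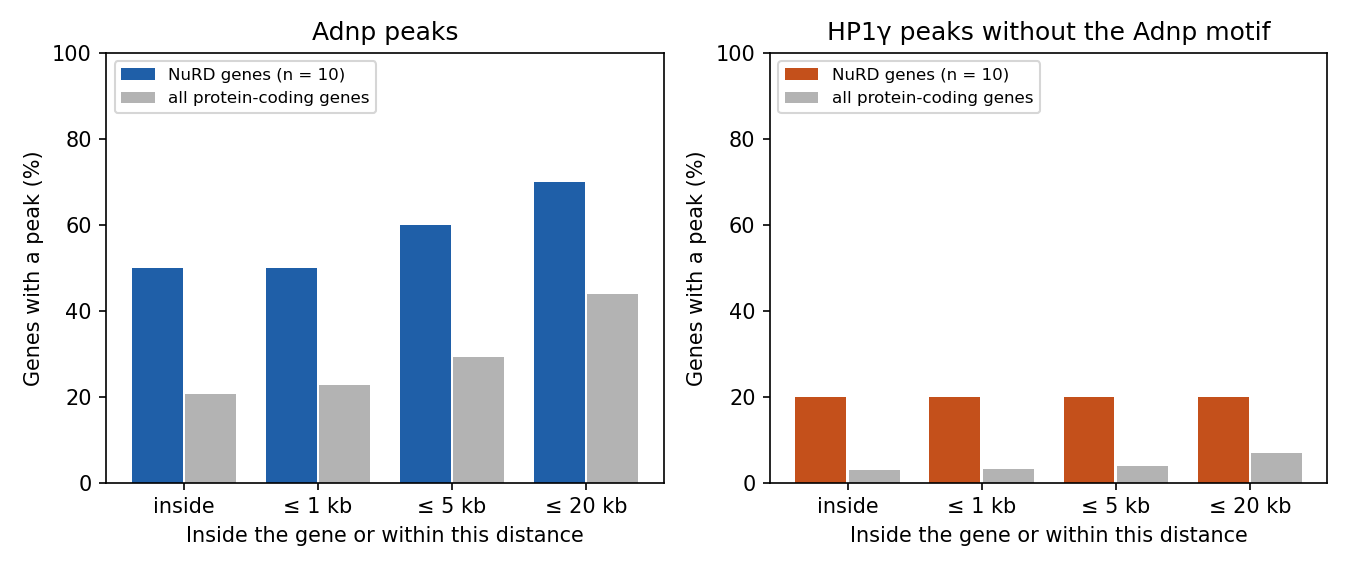
Share of genes with a peak (%) for 4 windows around the gene, with Adnp peaks on the left and HP1γ peaks on the right; coloured bars are the 10 NuRD genes and grey bars all 21523 protein-coding genes. The Adnp bars of the NuRD genes run from 50% inside to 70% within 20 kb, and the HP1γ bars stay at 20% in every window.

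Peaks were also counted around gene ends, on both sides of each end. No NuRD gene had an Adnp peak within 1 kb of either end, against 5.38% of all protein-coding genes, a count near that share for 10 genes. The Adnp peak centre closest to an end of its NuRD gene lay 3.62 kb away, at Gatad2b. Within 5 kb of an end, 5 of 10 had an Adnp peak, against 19.3%. For HP1γ the counts were 1 of 10 within 1 kb (Hdac2), against 0.855%, and 2 of 10 within 5 kb, against 2.04%.

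The map of peaks along the genes shows that the peaks were unevenly shared. In all, 25 Adnp peaks lay inside or within 20 kb of a NuRD gene. Of these, 12 lay inside the NuRD gene, 2 inside a neighbouring protein-coding gene and 11 outside protein-coding genes. For 5 of the 25, the nearest end of a protein-coding gene belonged to a neighbour. Mta3 alone had 9 of the 25 and Gatad2b had 6, while Hdac1, Hdac2 and Mta2 had none.

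**Figure D2:**
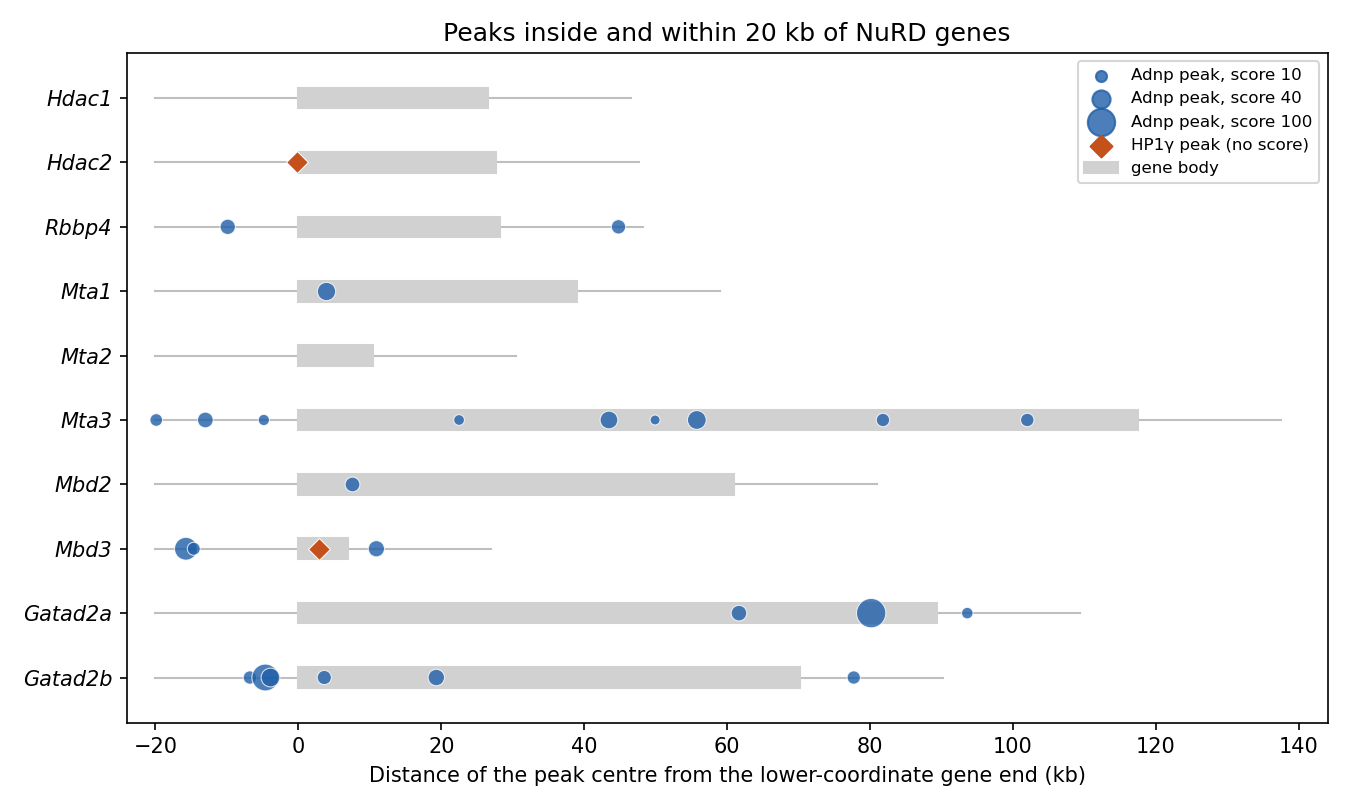
Position of each peak along the 10 NuRD genes, as the distance of its centre from the gene end with the lower coordinate (kb), with 20 kb shown on either side of each gene. Grey bars are gene bodies, blue circles are Adnp peaks sized by the authors' score and orange diamonds are HP1γ peaks; Mta3 holds 6 Adnp peaks, and the only diamonds lie at the end of Hdac2 and inside Mbd3.

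The deacetylases Hdac1 and Hdac2 are close paralogues that remove acetyl groups from histones, in NuRD and in the Sin3 and CoREST complexes. Hdac2 (chr10:36974297-37001889, plus strand) had an HP1γ peak at chr10:36973827-36974331 over its starting end. The peak was 505 bp wide. Its centre lay 0.218 kb outside the gene and 0.465 kb before the transcription start that RefSeq places at position 36974544. That start lies inside the annotated gene, after its lower end. The nearest Adnp peak lay 49.5 kb from Hdac2, and 57.2% of other protein-coding genes had one at that distance or nearer. Among 2606 genes between 0.8 and 1.25 times as long as Hdac2, 3.22% held an HP1γ peak.

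The 250 bases before the Hdac2 start at position 36974544 are shown because they hold the only overlap of any peak with an available NuRD promoter. They are chr10:36974294-36974543 on the plus strand, from RefSeq on GRCm38.p6. Nearly all of them lie inside the annotated gene, which begins at position 36974297. Capitals mark the 38 bases under the HP1γ peak, and the rest of the peak lies farther before the start.
Hdac2: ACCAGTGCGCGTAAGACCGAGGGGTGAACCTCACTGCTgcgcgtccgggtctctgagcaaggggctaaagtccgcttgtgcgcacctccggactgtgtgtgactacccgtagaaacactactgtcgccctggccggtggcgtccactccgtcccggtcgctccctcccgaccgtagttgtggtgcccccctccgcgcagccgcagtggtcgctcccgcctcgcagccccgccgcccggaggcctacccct

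Hdac1 (chr4:129516104-129542646) had no peak of either list within 20 kb. Its nearest Adnp peak was 39.7 kb away and its nearest HP1γ peak 82.9 kb away. The surrounding region was not poor in Adnp peaks, since 28 lay in the 500 kb on either side of the gene. The paralogues thus differed in whether an HP1γ peak lay at an end, and neither had an Adnp peak within 20 kb, which is a description of these lists and was not tested. For Hdac2 the same flanks held 1 Adnp peak.

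Rbbp4, a histone-binding chaperone that NuRD shares with other complexes such as Polycomb repressive complex 2, lies on the same chromosome as Hdac1 (chr4:129307100-129335370, minus strand). It had no Adnp peak inside or within 5 kb and 2 within 20 kb. The nearer lay 9.66 kb from the gene, inside its neighbour Sync, with a score of 26.1. The score is the authors' own value for a peak, whose kind is not stated. It serves here only to rank peaks within the Adnp list, where the median was 21.2. The other peak lay 16.3 kb away with a score of 22.1, and its centre was 1.74 kb from an end of Zbtb8a. Both Rbbp4 peaks were therefore nearer to other genes than to its own body or lay within them.

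The Mta proteins are scaffolds that hold the deacetylases in the complex, and the 3 paralogues had 1, 0 and 6 Adnp peaks inside, for Mta1, Mta2 and Mta3 in that order. Mta3 (chr17:83706163-83823715, 118 kb) had the most peaks of any NuRD gene. Its 6 inner peaks had scores of 9.07, 37.7, 6.70, 43.0, 18.1 and 18.4, ordered by coordinate. They were spread over the gene body, with centres from 22.5 kb to 102 kb from its lower end, and only 2 of the 6 lay above the list median. The other 3 peaks lay below the lower end, at 4.64, 12.8 and 19.7 kb from it, with scores of 10.6, 27.8 and 15.4.

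Mta3 is long, and longer genes held Adnp peaks more often. Of 1107 genes between 0.8 and 1.25 times its length, 48.3% held at least 1 Adnp peak, but 20 (1.81%) held 6 or more. Of all other protein-coding genes, 92 (0.428%) did. Its 5.1 Adnp peaks per 100 kb inside stood beside 2.6 per 100 kb in the 500 kb on either side. No HP1γ peak lay within 20 kb of Mta3, and the nearest was 42.6 kb away.

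**Figure D3:**
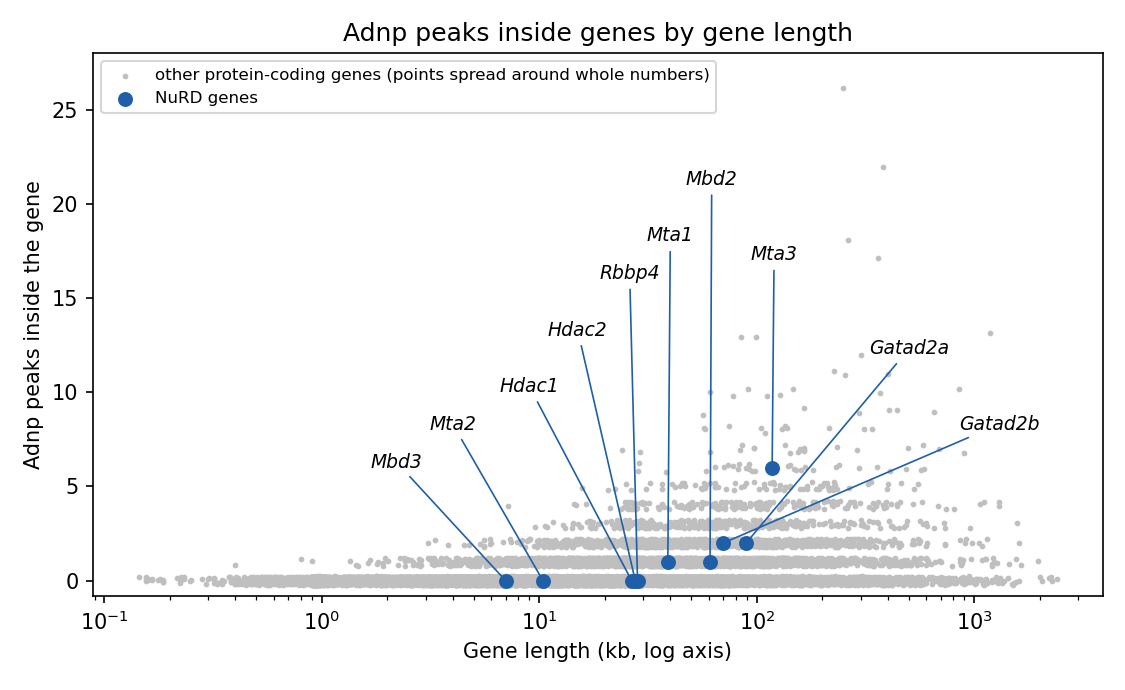
Number of Adnp peaks inside each protein-coding gene against gene length (kb, log axis). The 10 NuRD genes are blue and named, and other genes are grey points spread a little around whole numbers; Mta3, at 118 kb with 6 peaks, is the highest of the NuRD genes, and the 5 NuRD genes with 0 peaks are the 5 shortest.

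Mta1 (chr12:113098248-113137206, plus strand) had a single Adnp peak, at chr12:113101833-113102305. It lay inside the gene, 3.79 kb after the transcription start, and its score of 40.7 was above that of 82.1% of the list. The 500 kb flanks of Mta1 held 6 Adnp peaks. Mta2 (chr19:8941920-8952300, plus strand), a short gene of 10.4 kb, had no peak of either list within 20 kb. Its nearest Adnp peak was 60.1 kb away, the largest such distance among the 10 genes, and its nearest HP1γ peak 97.0 kb away.

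Gatad2a and Gatad2b encode paralogous zinc finger proteins that link the methyl-CpG-binding-domain subunit to the Chd enzyme. Both had Adnp peaks inside and outside, and the highest scores of all NuRD peaks were theirs. Gatad2a (chr8:69907069-69996402, minus strand) had its strongest peak at chr8:69986959-69987469, with a score of 116, above 98.3% of the list. It lay inside the gene, 9.17 kb after the upstream transcription start. A second inner peak with a score of 27.45 lay 5.67 kb after the downstream start, and another with a score of 11.5 lay 4.13 kb outside the gene, on the side of the upstream start.

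Gatad2b (chr3:90293181-90363405, plus strand) had 4 Adnp peaks inside or within 5 kb and 6 within 20 kb. Its strongest was at chr3:90288265-90288836, with a score of 95.9, above 97.3% of the list. This peak and its neighbour with a score of 43.1 had centres 4.63 and 3.91 kb before the upstream start. The inner peaks lay 2.72 and 18.4 kb after the downstream start, with scores of 21.4 and 31.2. The remaining pair, each with a score of 17.9, lay 6.51 kb and 7.24 kb outside the gene, the first on the start side and nearer to an end of Dennd4b. In both genes the strongest peak thus lay within 10 kb of a start, inside Gatad2a and before Gatad2b. Their flanks were rich in Adnp peaks, with 26 and 33 in the 500 kb on either side, and their rates inside, 2.24 and 2.85 per 100 kb, were below those of their flanks, 2.6 and 3.3.

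RefSeq promoters, 300 bases from 250 before to 50 after a start, were available for 7 of the 10 genes, with 9 starts in all. The genes without one are Hdac1, Mta3 and Mbd2. None of the 9 overlapped an Adnp peak, against 0.981% of 32619 promoters in the table, and 1, that of Hdac2, overlapped an HP1γ peak, against 0.380%. The letters CGCCCNCT, which open the motif that Adnp is known to favour, were searched on both strands. They stood in 1 of the 9 promoters, the upstream one of Gatad2a, and in 12.2% of 32851 promoters. The shorter CGCCC, which is part of those letters, stood in all 9 and in 47.0% of promoters. These 9 promoters were rich in CG pairs, with 16 to 50 each against a median of 7.0 over all promoters.

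The upstream Gatad2a promoter is shown because it alone of the 9 held the longer letters, a count near the share of 12.2% of all promoters. No peak of either list lay on this promoter. Its 250 bases before the start are chr8:69996385-69996634 on the minus strand of GRCm38.p6, from RefSeq. Capitals mark CGCCCNCT, which begins 96 bases before the start. The nearest Adnp peak to this promoter lay 3.90 kb away, so the match is a description of the letters and not of binding.
Gatad2a: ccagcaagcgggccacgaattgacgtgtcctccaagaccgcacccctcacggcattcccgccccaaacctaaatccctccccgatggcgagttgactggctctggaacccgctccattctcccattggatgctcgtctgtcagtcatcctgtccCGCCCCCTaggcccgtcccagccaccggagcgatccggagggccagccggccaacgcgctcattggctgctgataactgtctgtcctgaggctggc

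Over the whole complex, scores were spread widely. The 17 Adnp peaks inside or within 5 kb had scores of 6.70 to 116 with a median of 27.45, and the 25 within 20 kb had a median of 23.7, beside 21.2 for all 15026 peaks. Of the 17, 11 were above the list median and 6 were in its upper quartile, which began at 33.6. Of the 25, 15 were above the median and 7 in the upper quartile. Widths of the 25 were close to those of the list, with a median of 395 bp beside 396 bp for the list. The widest, 1152 bp, belonged to the Mbd3 neighbourhood.

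**Figure D4:**
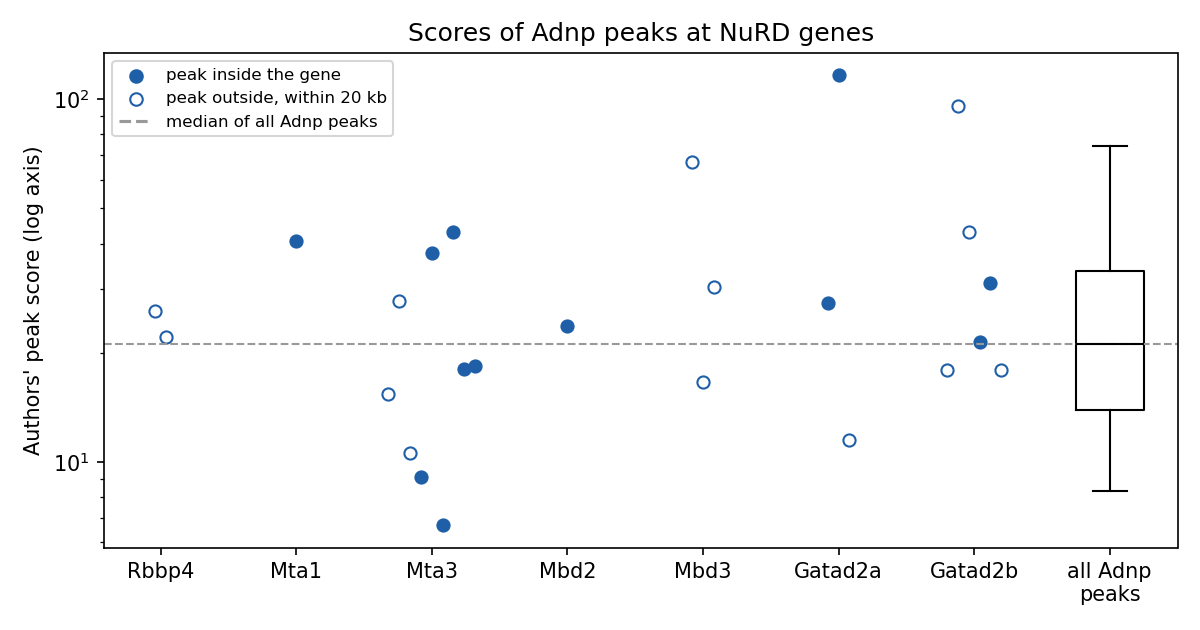
Authors' scores (log axis) of the Adnp peaks inside (filled) or outside and within 20 kb (open) of the 7 NuRD genes that have any, beside all 15026 Adnp peaks as a box from quartile to quartile with whiskers at the 5th and 95th percentiles. The dashed line is the list median of 21.2; the highest points are at Gatad2a (116) and Gatad2b (95.9), and the lowest is at Mta3 (6.70).

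Mbd2 and Mbd3 are alternative subunits with a methyl-CpG-binding domain. Mbd2 binds methylated DNA, while mammalian Mbd3 does so poorly and is the form most tied to stem cell differentiation. Mbd3 (chr10:80392539-80399531, minus strand) was the only NuRD gene with both kinds of peak within 5 kb, against 2.28% of all protein-coding genes with both. Its HP1γ peak at chr10:80395185-80395523 was 339 bp wide and lay inside the gene, 4.18 kb after the start. Mbd3 is the shortest of the 10 genes at 6.99 kb, and of 1866 genes between 0.8 and 1.25 times as long, 6 (0.322%) held an HP1γ peak.

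The Adnp peaks near Mbd3 lay in or next to other genes. The nearest, at chr10:80403269-80403625 with a score of 30.4, was 3.74 kb from the starting end of Mbd3 and inside Uqcr11, a subunit gene of respiratory complex III, with its centre 0.45 kb from an end of that gene. A further pair, with scores of 67.0 and 16.6, lay 15.2 and 14.5 kb beyond the other end of Mbd3. Their centres were nearer to Mex3d, an RNA-binding protein gene, at 3.56 and 2.46 kb. The HP1γ peak inside Mbd3 was 7.75 kb from the nearest Adnp peak, and that of Hdac2 was 49.0 kb from one, so neither overlapped an Adnp peak. The HP1γ list, per its name, leaves out peaks with the Adnp motif, so this absence of overlap says little about these genes. The share of all HP1γ peaks that overlap an Adnp peak is not given.

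Mbd2 (chr18:70568225-70629134) had 1 Adnp peak, inside the gene at 7.53 kb from its lower end, with a score of 23.7, above 56.6% of the list. No other Adnp peak lay within 500 kb on either side, the only such case among the 10 genes. Its nearest HP1γ peak was 1200 kb away. The paralogues thus had their peaks in different places, with the only inner peak from the Adnp list in Mbd2 and from the HP1γ list in Mbd3.

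Counted per length, the bodies of the 10 genes held 2.52 Adnp peaks per 100 kb (95% exact Poisson interval 1.3 to 4.4, 12 peaks in 477 kb), against 0.724 (0.708 to 0.741) in all protein-coding genes. Mta3 supplied 6 of the 12 peaks, and without it the rate was 1.67 (0.613 to 3.64). For HP1γ the rate was 0.419 per 100 kb (0.0508 to 1.52, 2 peaks), against 0.0759 (0.0707 to 0.0815). Counting peak centres, the HP1γ rate was 0.21 (0.00531 to 1.17), since the centre of the Hdac2 peak lies 0.218 kb outside the gene. Peaks close together are not independent, so the intervals are narrower than the true uncertainty. The 500 kb flanks of many of these genes were also rich in Adnp peaks. Per 100 kb they held 1.9 (Mta2), 2.1 (Mbd3), 2.5 (Rbbp4), 2.6 (Mta3 and Gatad2a), 2.8 (Hdac1) and 3.3 (Gatad2b). The flanks of Rbbp4 and Hdac1 cover much of the same region of chromosome 4, so they are not separate cases. Those of Mta1, Hdac2 and Mbd2 held 0.6, 0.1 and 0.0. Whether the gene bodies differed from their surroundings was not tested.

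Further NuRD subunits and partners were described from a list of 11 genes. An Adnp peak lay inside 4 of the 11, against 20.7% of all protein-coding genes, and inside or within 5 kb of 6, against 29.2%. None had an HP1γ peak inside or within 20 kb, against 6.83%, a count near that share for 11 genes. Chd4 itself had none of either list within 20 kb, with its nearest Adnp peak 22.9 kb away. Rbbp7, the paralogue of Rbbp4, held 2 Adnp peaks inside with a top score of 39.75. The highest scores within 5 kb were at Kdm1a, a histone demethylase, with 64.2, at Pwwp2a with 48.4 and at Sall4, a stem cell transcription factor, with 41.8.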

How the data were processed

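Mouse embryonic stem cell ChIP-seq was deposited as 2 BED lists of peaks. The authors merged replicates and, per the submitters' processing notes, used the build mm10 (GRCm38) and the tools MACS2, Bowtie 1.0.0, edgeR, STAR 2.5.0a and bcl2fastq 1.17, whose roles and settings the notes do not state. The score in the deposited Adnp list is the authors' value per peak, of a kind not stated, and the score is 0 throughout the HP1γ list. Deposited starts were read as BED positions, so 1 was added.

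Genes came from RefSeq's GRCm38.p6 table, starting at 3.0 Mb or later on chromosomes 1 to 19 and X. A peak counted when at least 1 bp lay inside a gene or within 1, 5 or 20 kb of it. Similar length meant 0.8 to 1.25 times. Depth is unknown. The members and lists were chosen with earlier results of these data known. All 10 members are named, and of each other list the 4 genes with the highest Adnp score within 5 kb; Chd4 and Rbbp7 were named after their values were seen. Interval functions were tested on simulated data. Python 3.11.15, NumPy 2.4.6, pandas 2.3.3, SciPy 1.17.1 and matplotlib 3.10.9 were used.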

Additional observations from a re-analysis of the deposited data

How the results depend on the processing

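The count of NuRD genes with an Adnp peak, 6 with the window of 5 kb, ran from 4 (scores in the upper quartile of the list) to 7 (window of 20 kb) over 8 alternatives of window, peak centre, joining within 10 kb and score. The share of all protein-coding genes at the score cuts is not given. Counts at those cuts therefore cannot be set against the shares for all peaks. The count with an HP1γ peak was 2 under all 6 alternatives run. Joining peaks within 10 kb made 13 regions of the 17 Adnp peaks inside or within 5 kb. The share of genes with a peak inside or within 5 kb moved with the genes compared. For Adnp it was 19.2% with all 49214 annotated genes and 34.4% with protein-coding genes of the NuRD length range, and for HP1γ it was 2.55% with all annotated genes. The window of 20 kb for both kinds of peak and the rate without Mta3 were chosen after seeing the data. No paired analysis was possible because each list is merged over its replicates. Peak names run to higher numbers than there are peaks, so each list is part of a longer one, and no peak here does not mean no binding. Unknown depth, strand beyond 7 genes and unread sequence under the peaks are further limits.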

Other observations

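Other chromatin complexes had Adnp peaks at shares between those of the NuRD genes and of all genes, or above both. Inside or within 5 kb it was 7 of 10 Polycomb repressive complex 2 genes, 5 of 9 CoREST genes, 6 of 14 Sin3 genes and 9 of 21 SWI/SNF genes, against 29.2% of all protein-coding genes. The order depended on the window. Within 20 kb the shares were 90.0% (Polycomb), 78.6% (Sin3), 71.4% (SWI/SNF) and 66.7% (CoREST). The NuRD genes stood at 70.0% and all protein-coding genes at 43.8% in that window. These lists leave out Hdac1, Hdac2 and Rbbp4, subunits shared with NuRD that had no Adnp peak inside or within 5 kb. Counting them would lower the shares within 5 kb of the complexes they belong to. Other shared subunits may also be left out, and their effect on the shares was not counted. The lists are not separate, since Rbbp7 and Kdm1a also stand among the further NuRD subunits and partners. In the Polycomb list the highest scores were at Aebp2 (121.1), Ezh1 (44.95), Rbbp7 (39.75) and Mtf2 (35.3), the last with 6 such peaks. In the CoREST list they were at Zmym2 (120.5), Kdm1a (64.2), Rcor2 (48.7) and Rcor1 (17.4). In the Sin3 list they were at Sinhcaf (77.2), Arid4a (30.35), Sin3b (27.7) and Arid4b (26.2), and in the SWI/SNF list at Actl6a (92.8), Arid1b (64.65), Dpf3 (43.1) and Pbrm1 (41.2).

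HP1γ peaks in these lists were at counts of 0 or 1. Inside or within 5 kb it was 1 of 14 Sin3 genes, 1 of 21 SWI/SNF genes, 0 of 10 Polycomb genes and 0 of 9 CoREST genes, against 3.88% of all protein-coding genes, and for lists of this size such counts are near that share. Sin3a, the scaffold of the Sin3 complex, had an HP1γ peak 2.39 kb from the gene and its nearest Adnp peak 64.1 kb away. Smarcd2, a SWI/SNF subunit gene, had an HP1γ peak 3.55 kb away and an Adnp peak inside with a score of 6.705. Suz12, a Polycomb subunit gene, had one 15.5 kb away. None of the 4 lists had an HP1γ peak inside a gene, against 2.86% of all protein-coding genes. This holds for the lists without Hdac2, which is also a subunit of the Sin3 and CoREST complexes and has an HP1γ peak over its starting end. Sin3a, Smarcd2 and Suz12 were named after their values were seen, and no difference between the lists was tested.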
